A study of Mus musculus with 2 samples.

Results

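Retained-intron transcripts are annotated transcripts of a coding gene in which sequence that other transcripts of the gene splice out is part of an exon. The set described here was chosen by level, and was taken from the transcript tables of 2 polyA RNA-seq libraries of embryonic mouse heart. It holds every transcript that the GENCODE M21 annotation types as retained intron, that belongs to an autosomal protein-coding gene, and that reached at least 5 TPM (a read count scaled by transcript length and library) in both libraries. This gave 1356 transcripts of 1050 genes, of 20899 retained-intron transcripts annotated in 8862 such genes and 141767 annotated transcripts in all. The levels that chose the transcripts also set their shares of gene TPM, so levels and shares are descriptions and carry no test.

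Both libraries are of 1 group, hearts of embryos of strain B6NCrl at day 12.5 with male and female embryos pooled, and no genotype, agent or other age was compared. Each library started from 10 ng of RNA primed with oligo-dT, was fragmented by Nextera tagmentation, and carried ERCC spike-in RNAs at 1000 times the amount meant for a single cell. The labels number them biological replicates 1 and 2 and give separate biosamples, but the same donor identifier. The spread between them may therefore be partly technical.

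The spliceosome removes introns by recognising a 5′ donor site, nearly always GT, and a 3′ acceptor site, nearly always AG. An mRNA that keeps an intron can be held in the nucleus, can be spliced later, or can reach the cytoplasm, where an early stop codon exposes it to nonsense-mediated decay. Many splicing factors are known to regulate their own mRNAs through such forms, and programmes of retained introns accompany the maturation of red cells, neurons and other lineages. The annotation type is wider than that definition: a model that only begins or ends inside an intron receives it too.

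The introns kept whole by the leading transcripts had ordinary splice sites. The sequences below come from the GENCODE M21 transcripts (GRCm38, the mm10 build) and show each site of the 5 transcripts among the leaders by TPM or by share that keep exactly 1 whole intron. For Rps20-201, which would also qualify, the model has fewer than 10 bases before its intron, and no window is shown. Each donor line gives 10 exon and 20 intron bases with the first 2 intron bases in capitals, and each acceptor line gives 20 intron and 10 exon bases with the last 2 intron bases in capitals.
Mrps26-201 donor: aggagctacgGTgcgagaggcccgggactg
Mrps26-201 acceptor: cggcgtcttgcccctcgcAGgatagcgagg
Prelid1-202 donor: agctgtccagGTaagaggctgcagggcggg
Prelid1-202 acceptor: ccttctccctctcctgccAGgaatttggtc
Rsrp1-204 donor: aaaggtggagGTaagtgccttcaggaagct
Rsrp1-204 acceptor: aaaattctcttcctctttAGcattcagaaa
Olfml3-202 donor: tgccttagagGTgagggacttgtttctctt
Olfml3-202 acceptor: tgactccccgatcccttcAGgaacggctgg
Arsa-201 donor: cgcttcccacGTgagtgaccctggccccgc
Arsa-201 acceptor: actccagtctctgcccccAGcacactcact

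The Mrps26 intron lies at chr2:130564228-130564307 on the plus strand, is intron 2 of 3, and has 80 bases of which 72.5% are G or C. The Prelid1 intron is intron 3 of 4 at chr13:55324445-55324526 on the plus strand, with 82 bases and 64.6% GC. Neither length is a multiple of 3, and read in the frame of the coding transcript neither held a stop codon before its end, so the downstream frame shifts. The Rsrp1 intron (chr4:134925433-134926734, plus strand, intron 3 of 4) has 1302 bases and an in-frame TGA at its base 49. The Olfml3 intron (chr3:103737238-103737821, minus strand, intron 1 of 2) has 584 bases and an in-frame TAG at base 46. The Arsa intron (chr15:89474710-89474786, minus strand, intron 4 of 8) has 77 bases.

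To show how early a stop codon can fall, 3 short introns are printed whole, with the first stop codon in the coding frame in capitals. Apart from Arsa, they were picked after their values were seen, to include a chaperone and a ribosomal protein. The Calr intron lies at chr8:84844784-84844870 on the minus strand and the Rps16 intron at chr7:28352274-28352362 on the plus strand.
Arsa-201 intron 4: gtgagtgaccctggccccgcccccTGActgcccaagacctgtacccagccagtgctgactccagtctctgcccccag
Calr-204 intron 4: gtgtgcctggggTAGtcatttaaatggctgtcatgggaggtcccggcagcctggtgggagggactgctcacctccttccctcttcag
Rps16-202 intron 3: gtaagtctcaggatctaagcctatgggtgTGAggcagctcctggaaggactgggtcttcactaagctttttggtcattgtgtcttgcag

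Measured against its label, most of the set did not contain an intron in full. Only 398 of the 1356 transcripts (29.4%) spanned at least 1 complete intron of a coding transcript of the same gene, and 436 did when introns of any transcript of the gene were counted. A further 413 began inside an intron, 469 ended inside one, 49 did both, and 27 were of other shapes. The part with a complete coding-transcript intron was near that of the annotated type. It was 29.9% over all annotated retained-intron transcripts and 30.1% over those below the cut in genes at 5 TPM or more. Of those with whole introns, 292 kept 1, 64 kept 2 and 42 kept at least 3, where introns that differ at 1 end were counted separately. A kept intron could still be exonic in another coding transcript: Dalrd3-202 spanned 2 introns and Srsf1-203 at least 1, and neither had a base outside coding-transcript exons. In all, 13 transcripts had no such base.

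The transcripts were mostly short and mostly exonic. Their median length was 825 bases over 3 exons (quartiles 594 and 1796), and a median of 26.8% of their bases lay outside the exons of every coding transcript of the gene. The share of 100-base read positions that touch at least 1 such intronic base had a median of 36.3%. It does not count exon junctions or introns that are exonic in another coding transcript. Mtch1-203, which spans a whole intron, thus stood at 3.25%. For the 14832 retained-intron transcripts of genes at 5 TPM or more that missed the level cut, the medians were 836 bases, 44.1% intronic bases and 55.3% of read positions. Under 10% of read positions touched an intron in 179 of the set (13.2%), against 5.66% of those others. Ends were shared with coding transcripts more often as well: the 3′ end lay within 50 bases of a coding 3′ end in 23.7% of the set and 13.1% of the others, and the 5′ end within 50 bases of a coding start in 37.0% and 29.9%. Both ends lay that near in 85 of the set (6.27%) and in 3.72% of the others. Most models thus differ from coding models at an end as well as by intronic bases. These differences are descriptions without a test.

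**Figure D1:**
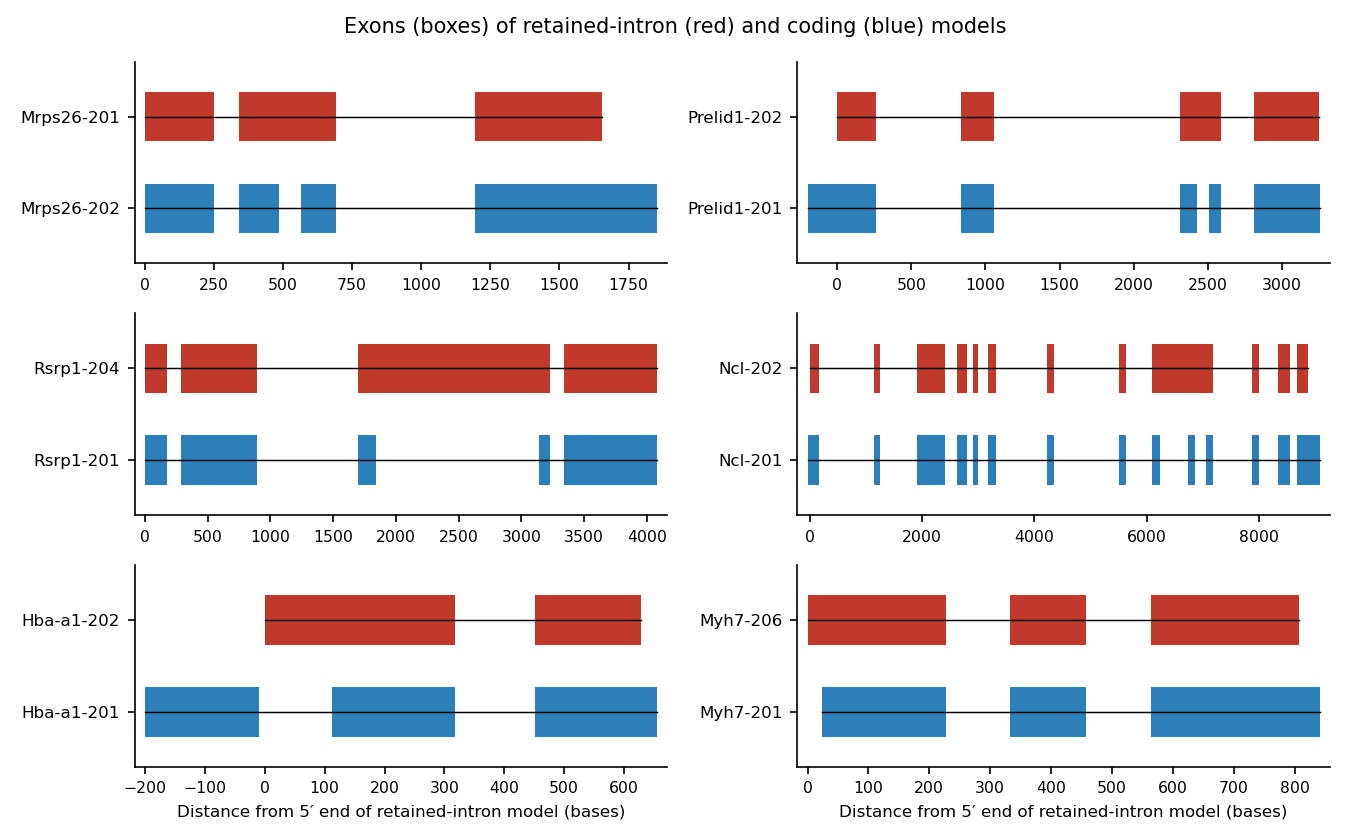
Exons (boxes) of 6 retained-intron transcripts in red, each above the most abundant coding transcript of its gene in blue, by distance in bases from the 5′ end of the red model (coding models are clipped 200 bases beyond it). Mrps26-201, Prelid1-202 and Rsrp1-204 bridge 1 intron and Ncl-202 bridges 2, while Hba-a1-202 and Myh7-206 only begin upstream of a coding exon boundary.

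Together the transcripts summed to 38226 TPM in the first replicate and 37504 TPM in the second. That was 17.1% and 16.8% of the TPM of their own 1050 genes. Of the expected counts on all annotated transcripts, a wider base, the set held 2.31% and 2.29%. A single red-cell transcript, Hba-a1-202, carried much of the sum, which was 31191 and 31546 TPM without it. Among all transcripts of autosomal coding genes that have a retained-intron model, that type held 10.9% of the TPM in each library. Coding transcripts held 80.4%, processed transcripts 4.83% and 4.90%, and transcripts typed as nonsense-mediated decay 3.81% and 3.79%.

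A typical member held a minor part of its gene's TPM, a median share of 14.97% ± 0.139 (SD of the 2 library medians, n = 2; 14.9% in replicate 1 and 15.1% in replicate 2). The quartiles were 6.93% and 27.7%, and the extremes 0.145% and 94.8%. At the same level cut, the median share was 51.3% for coding transcripts, 22.9% for processed transcripts and 22.5% for decay-typed transcripts. Shares of at least 50% in both libraries were reached by 77 transcripts (5.68%), shares under 10% by 445 and under 1% by 48. In 201 cases the retained-intron model was the most abundant transcript of its gene, and in 113 genes the members together held at least 50%. Between libraries a share moved by a median of 1.13 percentage points, with a 90th percentile of 4.96, and 17 moved by 10 points or more.

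Share and intron content ran in opposite directions. The median share was 27.2% for the 179 transcripts in which under 10% of read positions touch an intron, 21.6% for 10 to 25% (299 transcripts), 13.7% for 25 to 50% (404) and 9.44% for 50% or more (474). A mean share of at least 50% was reached by 20, 34, 18 and 12 transcripts in these 4 classes. Transcripts that start in an intron had a median share of 19.1%, those that end in one 15.1%, those with a whole intron 12.1%. How far the assignment of exonic reads between overlapping models sets these shares was not tested. Transcripts and mature mRNA that share most read positions can be told apart only by the few reads that touch the difference.

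The level cut ties share to gene level. Of genes at 5 to 10 TPM with an annotated retained-intron transcript, 0.746% (6 of 804) had a member, rising through 14.9% at 20 to 50 TPM (297 of 1992) and 40.9% at 100 to 500 TPM (306 of 749) to 59.7% at 500 TPM or more (83 of 139). The median share of members ran the other way, from 76.0% in the lowest class to 24.9%, 7.07% and 1.53% in those named. A weaker trend of the same sign remained when every annotated retained-intron transcript of a gene was summed whatever its level: medians were 11.9%, 8.80%, 3.70% and 1.13% of gene TPM.

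**Figure D2:**
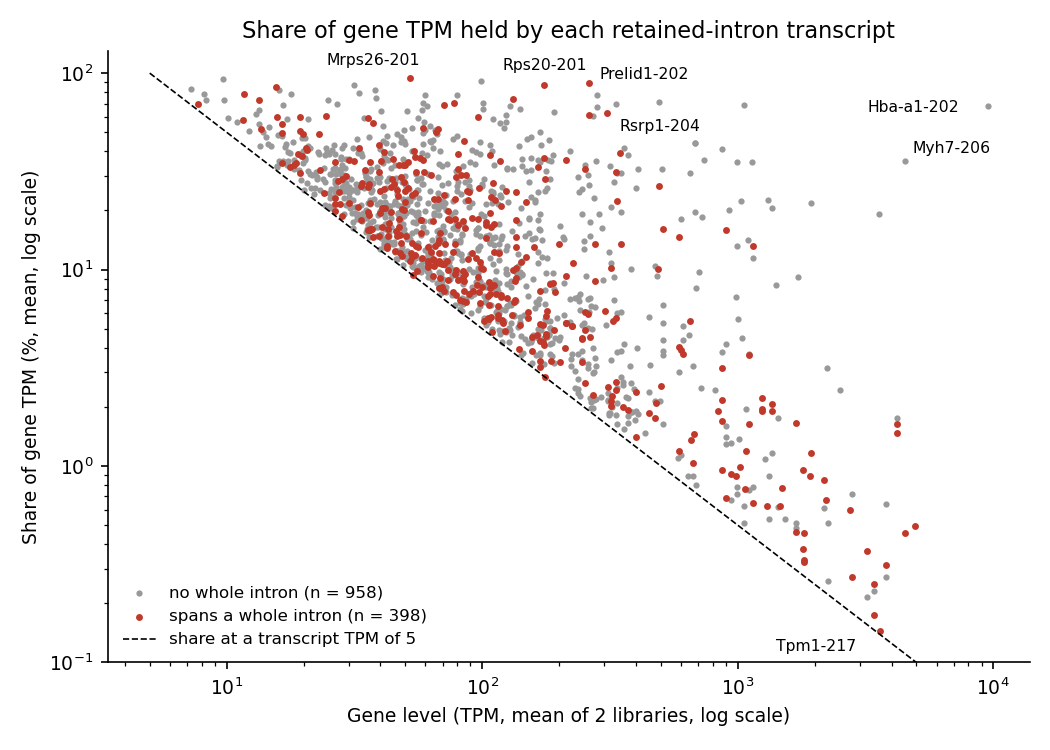
Share of gene TPM held by each of the 1356 transcripts (percent, mean of 2 libraries, log scale) against gene level (TPM, log scale); red points span a whole intron (398), grey points do not (958), and the dashed line is the share of a transcript at the 5 TPM cut. Points are bounded below by that line, and Prelid1-202, Rps20-201 and Rsrp1-204 stand out among the whole-intron transcripts.

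The highest levels belonged to models of a globin and of a myosin. Hba-a1-202, from the alpha-globin gene of red cells, read 7035 and 5959 TPM in replicates 1 and 2, the order used from here on, or 70.2% and 66.0% of gene TPM. It starts in an intron and holds 113 intronic bases, and the gene has a near-identical copy, Hba-a2, so its reads may be split between the copies. Myh7-206, from the slow myosin heavy chain of the sarcomere, read 1530 and 1677 TPM (35.01% and 36.3% of the gene). It holds 23 intronic bases, and 4.64% of its read positions touch them.

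Mitochondrial genes were also among the first 20. Atp5j-208, from a subunit of mitochondrial ATP synthase, read 733 and 718 TPM with shares of 68.5% and 68.7%, against 213 and 203 TPM for the leading coding transcript Atp5j-201. Ndufc1-203, from a complex I subunit, read 410 and 393 TPM (35.5% and 35.05%). Slc25a4-202, from the ADP/ATP carrier of the inner mitochondrial membrane, read 304 and 287 TPM (23.3% and 21.9%).

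Contractile genes were also among the first 20. Myl4-204, from the atrial and embryonic essential myosin light chain, read 438 and 410 TPM (22.6% and 21.3%). Tnni3-202, from cardiac troponin I, read 291 and 271 TPM (21.3% and 20.0%).

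Of the 20 leaders by TPM, 13 start in an intron, 5 end in one, and 2, Prelid1-202 and Rsrp1-204, keep a whole intron. In 19 of the 20, fewer than 50% of read positions touch an intron. Their median length was 531 bases, and 17 were under 700 bases. They held 38.3% and 36.4% of the summed TPM of the set. Others were Ppia-203, Cdk4-209, Rps16-203, Ndufab1-205, Vim-203, Rps26-202, Dynll1-204, Grcc10-203 and Hmgb1-206, at 183 to 686 TPM. Ppia, Hmgb1 and the ribosomal protein genes have many processed pseudogenes, which can take or lend reads.

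**Figure D3:**
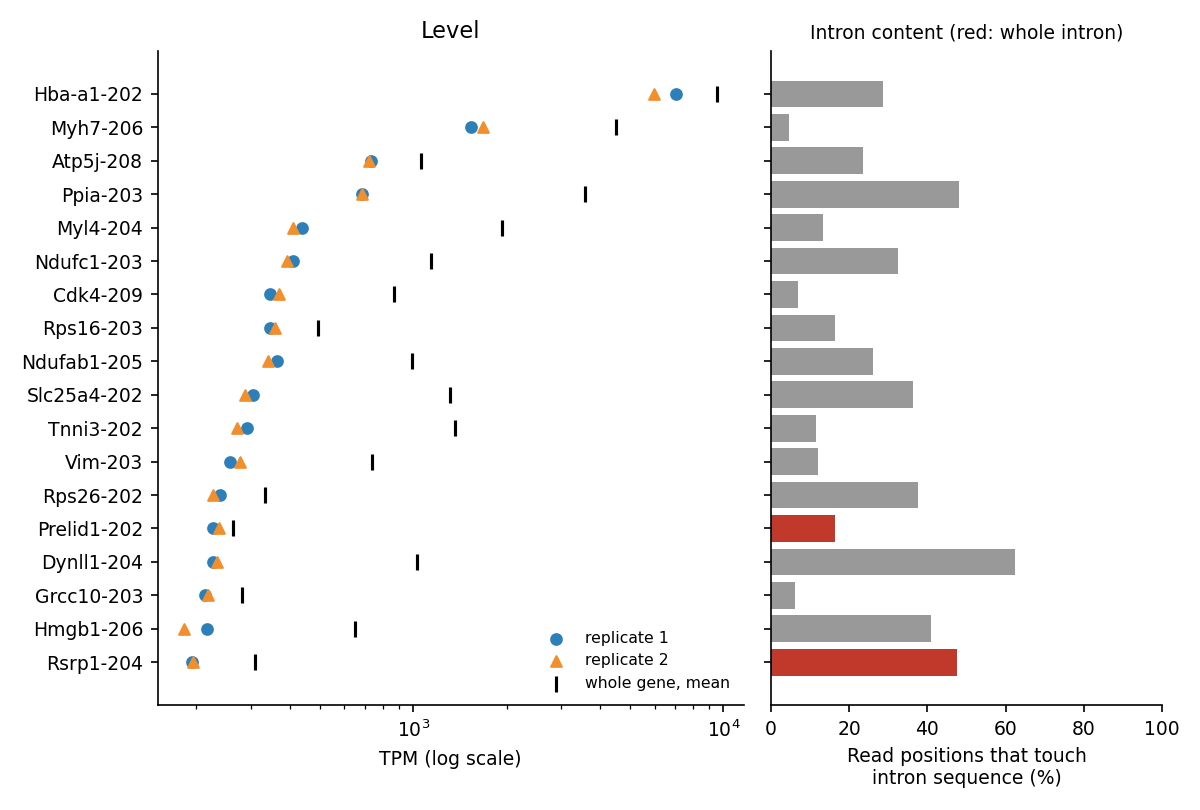
Left, TPM (log scale) of 18 of the 20 highest retained-intron transcripts in replicate 1 (circles) and replicate 2 (triangles), with the mean TPM of the whole gene as a black tick; right, percent of 100-base read positions that touch intronic sequence, in red where a whole intron is kept. The libraries nearly coincide for most transcripts, and only Dynll1-204 exceeds 50% of read positions.

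Among transcripts with a whole intron, Prelid1-202 led. Prelid1, which carries phosphatidic acid between mitochondrial membranes, had 227 and 237 TPM in this model, 88.4% and 88.8% of the gene, against 29.9 and 29.9 TPM for the spliced Prelid1-201. Only 16.4% of the read positions of Prelid1-202 touch the 82-base intron. The nearest coding 5′ end lies 1519 bases from that of Prelid1-202, so the models differ by more than this intron. Rsrp1-204, from an arginine- and serine-rich nuclear protein, read 193 and 195 TPM (63.8% and 61.9%), against 86.2 and 80.4 TPM for the coding Rsrp1-201. Here 47.5% of read positions touch the intron, so far more reads bear on the form.

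Nucleolin and 2 ribosomal proteins were next to be described; the ranking of whole-intron transcripts by TPM was added after values were seen. Ncl-202, from nucleolin, which acts in ribosome assembly, kept 2 adjacent introns of 492 and 190 bases, with in-frame stops at bases 99 and 2. Its level was 159 TPM in each library, 60.1% and 61.9% of the gene. Rps20-201 kept a 192-base first intron of 71.9% GC and read 154 and 152 TPM (87.7% and 87.1%). Rps16-202, whose 89-base intron is printed above, read 139 and 124 TPM (28.1% and 25.4%), and with Rps16-203 it left 8.24 and 9.02 TPM to the coding Rps16-201. The nearest coding 3′ ends lie 5776, 3139 and 459 bases from those of Ncl-202, Rps20-201 and Rps16-202. These models thus differ from coding models by more than the introns, and their shares do not measure retention alone.

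Some whole-intron transcripts of RNA-binding and splicing proteins follow. Hnrnpa2b1-208 read 150 and 151 TPM and Hnrnpk-217 139 and 149 TPM, both from abundant proteins that package pre-mRNA, at 13.0% to 16.3% of gene TPM. Srsf5-212, from an SR splicing factor, read 136 and 134 TPM (39.6% and 38.5%) and kept a 1229-base intron with an in-frame TGA at base 7. Sf3b1-203, from the U2 snRNP subunit that holds the branch point, read 55.2 and 54.9 TPM (33.9% and 32.4%) and kept an intron of 1813 bases.

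Calr-204, from the calcium-binding chaperone calreticulin, read 85.3 and 88.1 TPM (14.6% and 14.8%). Mrps24-201, from a mitochondrial ribosomal protein, read 96.8 and 97.1 TPM (74.0% and 73.0%) with an intron of 68 bases. Its 3′ end lies 343 bases from the nearest coding 3′ end.

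Heart muscle gave abundant but minor whole-intron transcripts. Tnnt2, which encodes cardiac troponin T, had Tnnt2-215 at 69.5 and 68.4 TPM and Tnnt2-208 at 61.7 and 62.0 TPM, almost entirely intronic models of 3330 and 2961 bases. They were 1.67% and 1.601%, and 1.48% and 1.45%, of gene TPM. At the bottom of the whole set stood Tpm1-217, from the tropomyosin of the thin filament, with 5.27 and 5.17 TPM and 0.147% and 0.143% of its gene. Gapdh-206, Gapdh-205 and Gapdh-213, from the glycolytic enzyme, and Ftl1-206, from ferritin light chain, were the other 4 lowest shares, all under 0.27%.

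Ranked by share among genes at a mean of 10 TPM or more, Mrps26-201 came first. Mrps26, a protein of the small mitochondrial ribosomal subunit, had 49.6 and 49.7 TPM in this model, 94.6% and 95.0% of the gene. The coding Mrps26-202, which splices this intron, had 2.81 and 2.64 TPM. The nearest coding 3′ end lies 3301 bases from that of Mrps26-201, so the models differ by more than the 80-base intron. These shares are therefore not a measure of spliced against unspliced mRNA. Mrpl57-202, from the large mitochondrial subunit, read 88.9 and 92.1 TPM (91.5% and 91.4%) and starts in an intron. Of the 15 highest shares, 5 kept a whole intron: Mrps26-201, Prelid1-202, Rps20-201, Olfml3-202 and Arsa-201. Olfml3-202 stood at 12.9 and 13.7 TPM, but at 2.81 and 3.24 TPM, under the cut, in the authors' tables on the older M4 annotation. Chic2-202, also among the 15, went from 27.5 and 27.3 TPM to 5.45 and 4.50 TPM there.

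Insr-202, from the insulin receptor, read 31.8 and 30.7 TPM (83.2% and 81.0%) and ends in an intron after 1675 bases, against 4.51 and 4.95 TPM for the full Insr-201. Arsa-201, from the lysosomal enzyme arylsulfatase A, read 8.74 and 9.42 TPM (75.1% and 80.9%). Dynlt1c-204, from a dynein light chain, is the 1 model of the 15 in which every read position touches an intron, at 12.4 and 13.6 TPM (85.3% and 78.2%), though the gene has near-identical paralogs that may share its reads. The others were Chic2-202, Ptges2-203, Bcr-203, Ufm1-204, Ndufb4-202, Grcc10-203 and Plbd2-203, at 72.4% to 87.9% in either library.

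The introns kept whole were short. The 398 transcripts held 579 introns with distinct ends, of a median 252 bases (quartiles 100 and 618), of which 37.3% were at most 150 bases. All 215083 introns of coding transcripts of autosomal coding genes had a median of 1448 bases and 9.50% at most 150, and the 16982 introns of the member genes 1002 bases and 14.6%. The 5828 introns kept whole by retained-intron transcripts below the cut were similar in length to those in the set, with a median of 280 bases and 31.5% at most 150. Shortness was thus shared by the annotated type, whether or not the transcript reached the level cut.

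**Figure D4:**
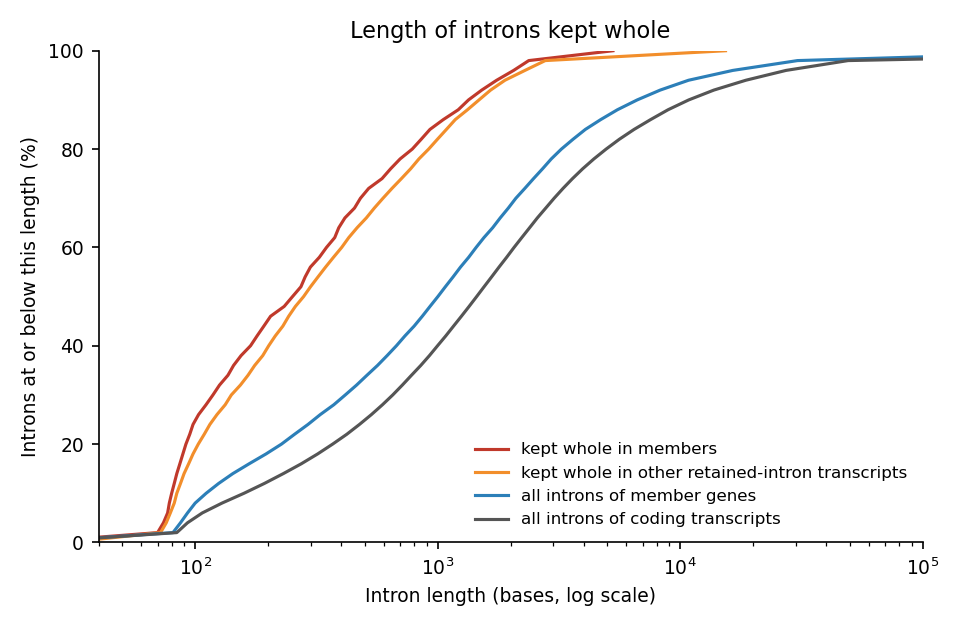
Cumulative percent of introns (vertical axis) at or below each length in bases (horizontal axis, log scale): introns kept whole in the 1356 transcripts (red), in other retained-intron transcripts of genes at 5 TPM (orange), all introns of the 1050 member genes (blue) and all introns of coding transcripts (grey). The red and orange curves lie close together, with medians of 252 and 280 bases, and far to the left of the blue and grey curves.

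Sequence features barely separated kept introns in the set from those below the cut. Median GC was 51.4% and 51.1%, and a GT donor was present in 98.4% of each. The strong donor letters GTAAGT opened 10.4% and 9.35% of introns, and GTGAGT 13.6% and 14.7%, searched on the transcript strand only. First introns made up 17.1% and 12.3%, last introns 12.1% and 8.77%. Of introns flanked by coding sequence with a known frame, 448 of 499 in the set (89.8%) and 4617 of 5196 below the cut (88.9%) held a stop codon in frame, at a median of base 31 and base 37. In the set, 14 introns kept the frame with no stop.

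A few kept introns host small RNAs in the annotation. Actg1-209, from gamma-actin, spans Mir6935 and read 40.2 and 40.5 TPM (3.66% and 3.65%). Eif5-204, from a translation initiation factor, spans Snora28 at 8.96 and 10.1 TPM. Stx5a-209 spans Mir6992 and Eif4a2-218 Snora81. These were chosen after their values were seen, and 10 of the 579 introns, in 8 transcripts, overlapped such a gene (1.73%), against 0.978% of the 5828 kept introns below the cut. Of the 10, 3 were in Nop56-218, with overlapping forms counted separately.

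Function lists were compared by the summed share of all annotated retained-intron transcripts of a gene, whatever their level, over genes at 10 TPM or more, so that the cut does not decide the value. Over all 5287 such genes the median was 7.43%, with quartiles of 2.55% and 18.7%, and 4.18% of genes reached 50%. The lists were put together with earlier results of these data known, and the comparison carries no test.

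By this measure the 2 lists of splicing regulators had the highest medians. For members alone, whose shares depend on the cut, the order was different. The median was 16.5% for the kinases and 12.8% for the SR list, against 14.97% over all members. It was 24.2% for the 4 members of exon junction and decay genes and 20.8% for the 4 of cardiac transcription factors. The 1 hepatocyte marker stood at 34.1%. CLK and SR protein kinases phosphorylate SR proteins. Over the 8 genes of their list the median summed share was 38.5%, from 13.1% for Srpk2 to 56.3% for Cdk13. Counting only models in which at least 50% of read positions touch an intron, the list median was 12.4%, against 2.52% over all genes. Cdk13, a gene at 12.3 TPM with no member, had 0% in such models. Clk1 summed to 48.0% of gene TPM in replicate 1 and 48.8% in replicate 2, Clk4 to 45.3% and 46.4%, and Clk3 to 25.9% and 30.4%. Clk1-204, the leading member, read 25.4 and 25.5 TPM and keeps 3 annotated introns over 2215 intronic bases. Prpf4b-206, from a related kinase, read 21.03 and 22.6 TPM and ends in an intron.

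SR splicing factors recruit the spliceosome to exons. Their list of 26 genes, which also holds other splicing-related genes such as Luc7l, Luc7l2 and Ddx46, had a median of 21.4%. It was 10.4% in mostly intronic models. The order ran from Scaf1 at 1.62% to Luc7l2 at 67.0%, with 4 of 26 at 50% or more: Luc7l2, Luc7l, Rsrp1 and Srsf11. Of these, only Srsf11 is an Srsf gene. Within the list the spread was wide, with Srsf6 at 1.92% and 2.67% and Tra2b at 3.52% and 4.06%, against Srsf5 at 40.8% and 39.5%. Of the 26 genes with an annotated model, 17 had 28 members, among them Srsf2-203 at 48.1 and 49.2 TPM. Srsf11 had 5 members between 7.73 and 29.9 TPM, of which Srsf11-208 was the highest.

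Core spliceosome genes stood at 12.02% over 43 genes (24 members in 18 genes) and hnRNP and other RNA-binding proteins at 8.41% over 40 (41 members in 17 genes), the second close to the value for all genes. The hnRNP list was uneven: Tia1, a stress-granule and splicing protein, summed to 66.8% and 63.6%, and Rbm39 to 62.3% and 63.2%, whereas Tardbp and Qk were listed at 0. Rbm39-205 read 107 and 109 TPM and ends in an intron. Snrpb2, a protein of the U2 snRNP, had the highest core value, 73.6% and 74.6%, of which Snrpb2-203 at 24.2 and 27.9 TPM was the 1 member. Genes of the exon junction complex and nonsense-mediated decay had a median of 9.17% over 14 genes, with Alyref-203, from an mRNA export adaptor, at 104 and 96.8 TPM.

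Highly expressed lists lay below the median of all genes, as did some lists of lower level given below. Ribosomal proteins had 1.41% over 60 genes, respiratory chain genes 1.601% over 31, glycolysis and citric acid cycle genes 1.73% over 24 and sarcomere genes 2.44% over 20. Their median gene levels were 481, 697, 357 and 840 TPM, against 35.9 TPM over all genes. Shares fell with gene level in the whole set, but the part of gene level in these list medians was not tested. At least 1 member was held by 26 of 60 ribosomal protein genes, 16 of 31 respiratory genes and 17 of 20 sarcomere genes. Over all genes with an annotated model, 40.9% had a member at 100 to 500 TPM and 59.7% at 500 TPM or more. The cut favours abundant genes, so nothing more is read from these counts. The SR list had a median gene level of 82.5 TPM and the kinases 46.8 TPM, in classes whose medians over all genes were 6.38% (50 to 100 TPM) and 8.80% (20 to 50 TPM).

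Regulators of the heart and of chromatin had values near or somewhat above all genes. Cardiac transcription factors had a median of 12.1% over 16 genes, but 3 genes had the 4 members. Tbx20-205, from a T-box factor of the heart tube, read 13.7 and 14.8 TPM (15.8% and 18.2%), and Tead1-214, from a partner of the Hippo pathway's coactivators, read 8.19 and 9.49 TPM (30.8% and 33.5%). Chromatin regulators stood at 8.98% over 39 genes, calcium handling genes at 9.22% over 18, cell cycle genes at 5.53% over 32, proteasome and chaperone genes at 3.82% over 28 and translation factors at 3.62% over 49. Red cell genes had 3.15% over 12 genes and extracellular matrix genes 1.498% over 21. Median gene levels were 67.6 TPM for red cell genes, 109 TPM for matrix genes and 97.0 TPM for translation factors. Sparc-205, from a collagen-binding matrix protein, led the matrix list at 174 and 134 TPM, and Fn1-202, from fibronectin, was its 1 whole-intron transcript, at 72.9 and 77.7 TPM (22.5% and 22.3%).

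**Figure D5:**
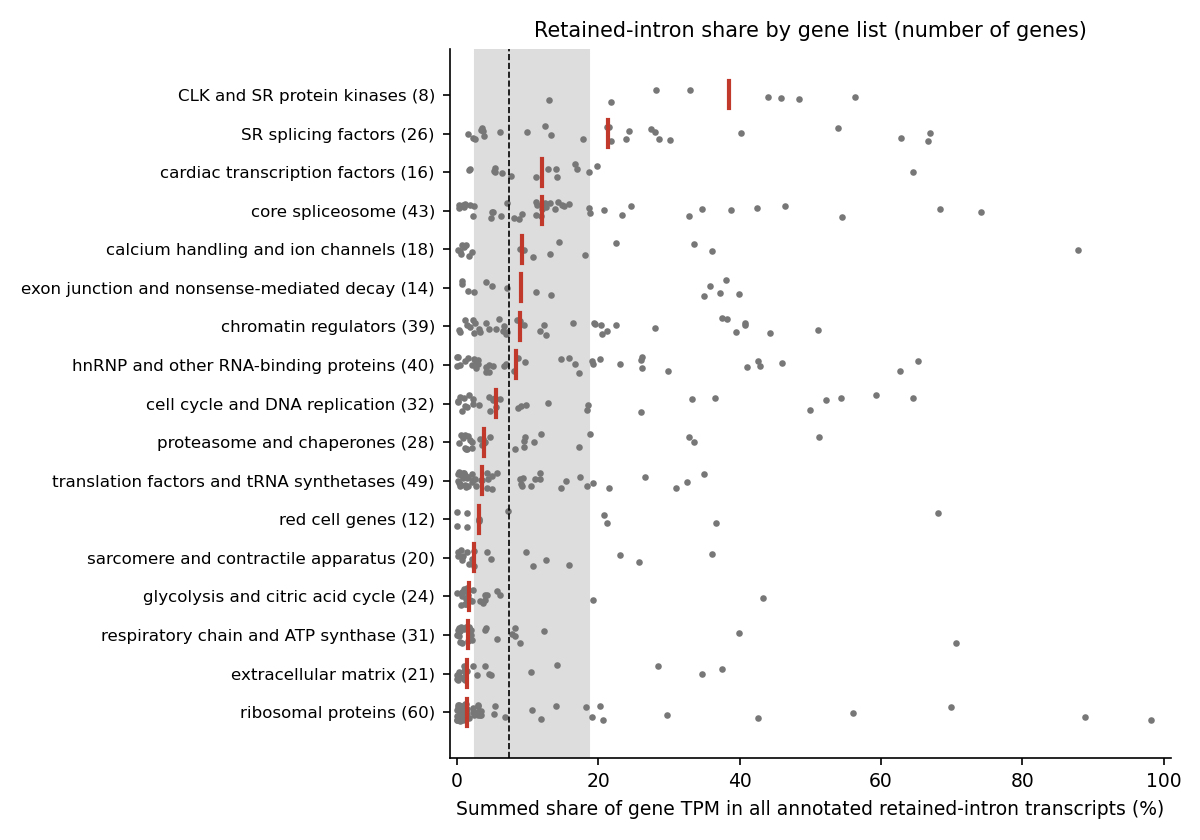
Summed share of gene TPM in all annotated retained-intron transcripts (percent, mean of 2 libraries) for each gene (grey points) of 17 function lists, with list medians as red bars and the number of genes in brackets; the dashed line and grey band are the median and quartiles over all 5287 genes (7.43%, 2.55% and 18.7%). The kinase and SR lists lie to the right of the line by median. The ribosomal, respiratory, glycolytic and sarcomere lists lie to the left, as does the extracellular matrix list. Each of these lists has single genes far from its median.

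Most genes had 1 member (821), 171 had 2 and 58 had at least 3. Hnrnpk had the most, 6, led by Hnrnpk-217 and followed by Hnrnpk-215 at 37.1 and 38.8 TPM. Srsf11, Tia1 and Fn1 had 5 each. Genes with 4 included Rbm39, Hnrnpa2b1, Eif4a2, Tnni3, Cdk4 and Sorbs2. The 4 models of Sorbs2, an adaptor of the sarcomere's Z-disc, were all near the cut, at 5.97 to 9.54 TPM. Transcripts of 1 gene share exons and reads and are not independent.

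The 2 libraries gave like levels for most of the set. Replicate 2 was compared with replicate 1 by an exact binomial test on rounded expected counts, two-sided, with Benjamini-Hochberg adjustment over 50356 transcripts and a call at an adjusted p under 0.05 with at least a 2-fold ratio. Of 1354 members tested, 14 were called (1.03%), 7 higher and 7 lower, while 12.4% of all tested transcripts were called (6.09% higher and 6.30% lower). Passing 5 TPM in both libraries limits how far a member can differ, so nothing is read from the lower share. By adjusted p alone, 273 members (20.2%) and 27.1% of all transcripts passed. The test covers counting error, not the uncertainty of assigning reads to models, and compares these libraries, not conditions.

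The largest ratio belonged to Gnb2-210, from a G protein beta subunit, at 5.36 TPM in the first and 18.1 TPM in the second library (log2 ratio 1.72, adjusted p = 5.47e-18 by the exact binomial test), while the gene stood at 224 and 215 TPM. Its deposited credibility bounds were wide and overlapped, at 0.0021 to 18.9 TPM and 5.25 to 30.5 TPM. Hsp90b1-205, Sdha-204, Cd1d1-204 and Hmgb1-204 were the next higher in replicate 2. Nt5dc2-205 was the lowest ratio, at 19.6 and 7.02 TPM (log2 ratio -1.51, adjusted p = 1.36e-20 by the same exact test), with the gene at 268 and 269 TPM and bounds of 10.6 to 27.04 TPM and 1.61 to 13.0 TPM. The bounds overlapped between libraries for 12 of the 14 called members. Anxa5-202, Dhps-203, Fastk-215 and 2410015M20Rik-205 followed. In these 10 genes the ratio between the libraries was smaller for the gene's TPM than for the model's. The models were picked for their large ratios, so nothing more is read from this.

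Trf-209 was different, and is named as the 1 member of the hepatocyte marker list. Trf, which encodes the iron carrier transferrin, fell from 63.0 to 28.0 TPM, and Trf-209 from 20.8 to 9.86 TPM (log2 ratio -1.09, adjusted p = 2.76e-07 by the exact binomial test), while its share was 33.0% and 35.3%. The 8 hepatocyte markers summed to 234 and 64.7 TPM, with 6 of 8 at 1 TPM or more in both. The part of liver RNA in this difference was not tested.

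The older GENCODE M4 tables, made by the authors from the same libraries, hold 915 of the 1356 transcripts. Of these 875 were at 5 TPM or more in both libraries there, and 852 (93.1%) lay within 0.5 log2 of their M21 level. The cause of the larger moves was not tested. Rps16-202 went from 139 and 124 TPM to 3.25 and 0 TPM on M4, and Rps20-201 from 154 and 152 to 308 and 314 TPM. Hbb-bs-202, from a beta-globin gene, went from 84.9 and 57.0 TPM to 1231 and 1064 TPM.

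At the edge of the set, transcripts just inside and just outside had nearly the same levels. The lowest inside were Fra10ac1-203 (5.00 and 5.35 TPM), Rsu1-203 (5.15 and 5.01), Pabpc4-206, Ubp1-207 and Ndrg2-212. The nearest outside were Mtss1-209 (5.06 and 4.99 TPM), Nvl-203 (5.04 and 4.99), Napa-207, Stk38-213 and Pgam1-202. In all, 614 members were under 10 TPM in both libraries, 46 were at 100 TPM or more in both, and the median was 9.78 TPM.

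The libraries held 34244174 and 31390623 expected counts on annotated transcripts. All 6 heart muscle markers were present at 2131 TPM or more in each library, 1 neural marker and both lung endoderm markers stood below 1 TPM in at least 1 library, and red cell markers were abundant. The counts of the 2 libraries differed by more than sampling noise over 20136 genes (chi-square per degree of freedom 4.01), so they were not the same library deposited again. A member had a median expected count of 248 and 238 reads, but 301 members had fewer than 100 in a library and the lowest had 4.13. The deposited posterior SD of a count was a median 7.22% and 7.57% of the count, and the deposited lower credibility bound was at least 5 TPM in both libraries for 894 members. An exon of another gene on the same strand was overlapped by 91 members, which are not listed here. Strand use in counting is not given, and 167 members (12.3%) overlap an exon of a gene on the other strand, whose reads cannot be told apart from theirs. Of the transcripts named above, those with an overlap on the other strand are Mrps26-201, Prelid1-202, Myh7-206, Srsf2-203, Dalrd3-202, Gapdh-213, Nt5dc2-205, Dhps-203 and Ubp1-207.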

How the data were processed

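PolyA RNA of 2 embryonic heart libraries was quantified on GENCODE M21 and M4 (mm10), per the text files deposited with them. The authors deposited expected counts (estimated reads, shared out among models), TPM scaled by effective length, the percent of gene TPM per transcript, a posterior SD of each count (a score in reads) and bounds of a TPM credibility interval (signal in TPM), per the file headers. The column layout is that of RSEM; the sources used here do not give aligner, counter, versions, strand setting or interval level.

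Transcript types, exons and sequences came from the GENCODE M21 annotation and transcripts. Introns of at least 20 bases were compared with exons. Rows with numeric identifiers, which name no gene and hold 0.000115% and 0.000117% of expected counts, and ERCC rows were left out. Library scaling used TMM (edgeR 4.0.16) with DESeq2 1.42.0 size factors as an alternative; Python 3.11.15 and scipy 1.17.1 ran the tests on rounded expected counts for transcripts with a summed count of at least 20. On simulated data of 50308 transcripts, the test recovered 98.5% of 200 transcripts changed 3-fold, with 1 false call.

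The members and all 18 gene lists were chosen with earlier results of these data known. Of 693 list symbols, 692 were matched. Named transcripts are the 20 highest by TPM, the 15 highest and 5 lowest by share, 3 per list, 5 at each side of the cut, up to 5 per direction between libraries, genes with at least 3 members, and the 5 largest differences between annotations; others are said to be chosen after their values were seen, and a few that the rule names are left out here. Alternatives were other level cuts, posterior means, M4, count minimums, scalings, intron definitions and single libraries.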

Additional observations from a re-analysis of the deposited data

How the results depend on the processing

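The set size, the median share and the sum depended on the level cut and on what counts as a retained intron. The number of transcripts was 3608 at a cut of 2 TPM and 598 at 10 TPM, and chosen after seeing the data, 398 with a whole intron only and 474 with at least 50% intronic read positions. The median share was 9.08% and 22.02% at these cuts, 14.8% with posterior mean TPM, 12.1% for whole introns and 9.44% for mostly intronic models. Transcripts holding at least 50% of gene TPM numbered 22 and 9 in the last pair of classes. The summed TPM, 37865 as the mean of libraries, was 45668 and 32121 at the cuts, 36732 with posterior means, 31984 on M4, 6981 for whole introns, 6286 for mostly intronic models and 31368 without Hba-a1, an alternative also chosen after seeing the data. With each replicate left out in turn, the median share was 14.0% to 14.5% and the sum 38874 to 39405 TPM. The median intron length was 279 bases with introns of any transcript. The cause was not tested where the construction of an alternative does not show it. Calls between libraries were 6 to 9 higher and 6 to 7 lower under every scaling, count minimum and posterior mean tried. No paired analysis was possible because both libraries belong to 1 group. Low counts limit the shares of members near the cut.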
